A study of Arabidopsis thaliana with 18 samples.

Results

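The chaperone genes described here are 10 Arabidopsis thaliana genes of the cytosolic HSP70, HSP90 and HSP101 families, taken by identifier from a count table of 33602 genes. They are HSP70 (AT3G12580), HSP70B (AT1G16030), HSC70-1 (AT5G02500), HSC70-2 (AT5G02490), HSC70-3 (AT3G09440), HSP90.1 (AT5G52640), HSP90.2 (AT5G56030), HSP90.3 (AT5G56010), HSP90.4 (AT5G56000) and HSP101 (AT1G74310). All 10 passed the filter on low counts, which kept 18906 genes. RNA came from seedlings of 6 genotypes, with 3 libraries each and 18 in all. The genotypes are the wild type and lines mutated in genes of the histone variant H2A.Z or in genes linked to its handling. These RNA counts do not measure the deposition of H2A.Z.

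Seedlings of every genotype were of the Col-0 ecotype and were 14 days old, raised on MS medium at 22 °C under days of 16 h light and nights of 8 h, with no heat treatment named in the labels. Col-0 without mutations was the wild type. The atchz1ab line is mutated in genes named for AtChz1, after a yeast chaperone of H2A.Z, and the labels name no allele for it. The hta9hta11 line carries hta9-1 and hta11-2, alleles of H2A.Z genes. The arp6 line carries arp6-1, an allele of a gene whose product belongs to SWR1, the remodeller that swaps H2A for H2A.Z in nucleosomes. The combined lines were atchz1ab hta9hta11, with the alleles hta9-1 and hta11-2, and atchz1ab arp6, with arp6-1. Each genotype is represented by 1 line, and the labels do not say how many plants entered a library or whether libraries of a genotype came from separately grown plants.

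HSP70 proteins bind exposed stretches of unfolded or newly made proteins and release them in cycles of ATP hydrolysis, helped by J proteins and nucleotide exchange factors. HSP90 proteins act later in folding, on clients that include signalling proteins and, in plants, immune receptors. HSP101 is a ring-shaped ATPase of the ClpB class that pulls proteins out of aggregates, and Arabidopsis plants without it fail to acquire tolerance to severe heat. The HSC70 genes and HSP90.2 to HSP90.4 are known as constitutively expressed, and HSP70, HSP70B, HSP90.1 and HSP101 as genes strongly induced by heat shock factors. HSP70 has also served as a reporter of temperature in work on H2A.Z in this species.

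The mutated genes were read first. ARP6 (AT3G33520) summed to 714 counts in Col-0, 0 in arp6 and 1 in atchz1ab arp6. HTA11 (AT3G54560) stood at 19.5 ± 1.64 CPM (counts scaled to library size, mean ± SD, n = 3) in Col-0 and at 0.832 ± 0.513 in hta9hta11 and 0.811 ± 0.236 in atchz1ab hta9hta11, while HTA9 (AT1G52740) kept 42.7 ± 1.68 and 39.2 ± 2.73 CPM in these lines against 93.3 ± 5.85 in Col-0. The AtChz1 transcripts are not analysed here. Totals ran from 7163359 to 10744318 counts per library, and the first principal component, with 60% of the variance, ran from 54.6 to 69.7 in the 6 libraries with the arp6 allele and from -37.0 to -26.7 in the remaining 12. Summed CPM of the 3 leaf markers was 15559 to 15626 in Col-0, 22267 to 22723 in arp6 and 19110 to 19707 in atchz1ab arp6. The 3 root markers summed to 356 to 371 CPM in Col-0, 252 to 259.9 in arp6 and 295 to 309 in atchz1ab arp6, nearly all of it PYK10, since the root hair genes RHD6 and COBL9 were at 0 counts in Col-0 and at 4 or fewer in each other genotype. The 4 seed markers summed to 10.3 to 13.9 CPM in Col-0, 26.3 to 29.2 in atchz1ab, 48.1 to 53.6 in hta9hta11, 82.7 to 85.9 in atchz1ab hta9hta11, 11.4 to 13.4 in arp6 and 5.76 to 6.80 in atchz1ab arp6. The 3 flower markers stayed between 0.328 and 2.97 CPM in all libraries. With RHD6 and COBL9 at or near 0 counts, how much root entered the libraries is uncertain and was not tested. The part that these shifts in tissue markers play in the results below was not tested. Fewer cells of a type cannot be told apart from less RNA per cell in seedling RNA.

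Per length, HSC70-1 was by far the most abundant member. Levels per kilobase of exon (RPKM, from RefSeq exon lengths of the TAIR10.1 annotation) in Col-0 were 798 ± 9.17 for HSC70-1, 177 ± 1.95 for HSP90.3, 135 ± 2.09 for HSC70-3 and 126 ± 3.84 for HSP90.2. The remaining members stood far lower, from 17.1 ± 1.44 RPKM for HSP70 down to 5.62 ± 0.271 for HSP101 and 5.47 ± 0.325 for HSP70B. HSC70-1 alone made up 61.1% of the members' summed RPKM in Col-0. In that order the libraries of HSP70 and HSP90.4 overlapped, as did those of HSP101 and HSP70B, and all other neighbours were apart. Being apart describes only the spread between libraries. Of the stretches of 50 bases in transcripts of HSP90.2, HSP90.3 and HSP90.4, 18.7% to 23.9% also occur unchanged in another gene, as described below. Their places beside close neighbours such as HSC70-3 are therefore uncertain. The exon model of HSP90.1 holds only coding sequence, so its length, and with it its RPKM, is not on the same footing as that of the others. That of HSC70-3 is long, with 3222 bases for 1950 coding bases, against 2485 to 2570 bases in the other HSP70 family genes. A longer model gives a lower RPKM, so the place of HSC70-3 below HSP90.3 also depends on the annotation.

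**Figure D1:**
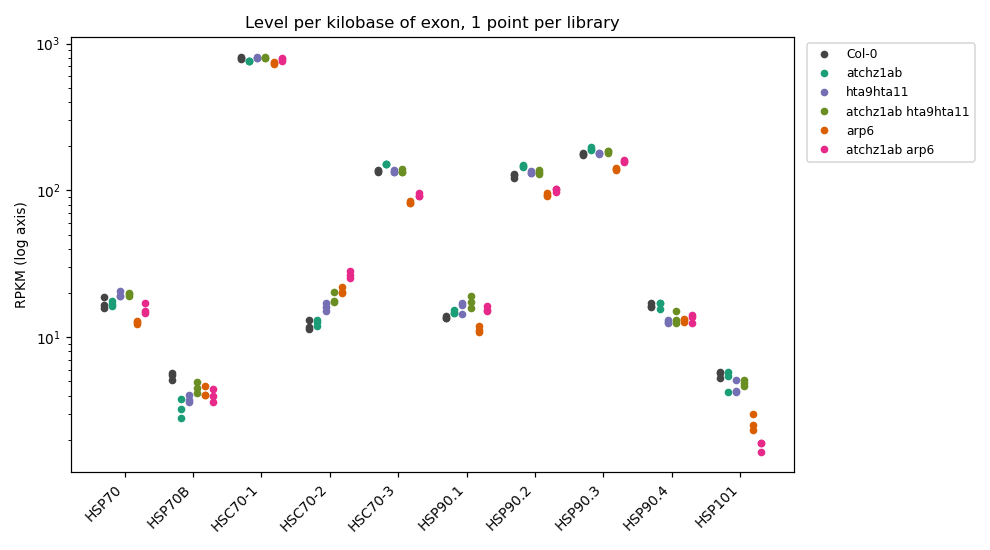
Level of each gene per kilobase of exon (RPKM, log axis), 1 point per library and 1 colour per genotype. HSC70-1 lies highest in every genotype, at 798 ± 9.17 RPKM in Col-0 and 736 ± 9.44 in arp6, and HSP101 and HSP70B lie lowest. In the 2 lines carrying arp6 HSC70-2 lies above HSP70, HSP90.1 and HSP90.4. In hta9hta11 and atchz1ab hta9hta11 its mean lies above those of HSP90.1 and HSP90.4 only.

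Several ranks differed in the lines carrying arp6. HSC70-2 was the eighth in Col-0 at 12.1 ± 0.903 RPKM and the fifth in arp6 at 20.8 ± 1.07 and in atchz1ab arp6 at 26.8 ± 1.52. Its rank was already 6 in hta9hta11 (16.1 ± 1.04) and in atchz1ab hta9hta11 (18.4 ± 1.71). There its mean lay above those of HSP90.1 and HSP90.4 but below that of HSP70. Its libraries overlapped those of HSP90.1 in both lines and those of HSP70 in atchz1ab hta9hta11. Since the length of HSP90.1 covers only coding sequence, the rank of HSC70-2 beside it is uncertain in every genotype. HSP101 came last, at 2.61 ± 0.345 RPKM in arp6 and 1.83 ± 0.152 in atchz1ab arp6. Summed over the 10 genes, the members held 0.353% to 0.365% of all counts in each of the 12 libraries without arp6, 0.274% to 0.279% in arp6 and 0.308% to 0.313% in atchz1ab arp6.

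Differences between genotypes were tested with edgeR's quasi-likelihood test on the counts over all 18906 genes, and genes with a p under 0.05 after Benjamini-Hochberg adjustment were called. Against Col-0, arp6 had all 10 members called, 1 higher and 9 lower, where 49.7% of all tested genes were called, 24.2% higher and 25.5% lower. Log2 fold changes are given ± SE from here on. The median log2 fold change of the members was -0.35, beside -0.016 over all tested genes. In atchz1ab arp6 7 members were called, 1 higher and 6 lower (45.9% of all genes, 22.7% higher and 23.2% lower), with a median of -0.23 beside -0.0096. In atchz1ab 5 were called, 3 higher and 2 lower (11.7% of all genes, 6.15% higher and 5.55% lower). In hta9hta11 3 were called, 1 higher and 2 lower (11.2% of all genes, 5.98% higher and 5.26% lower). In atchz1ab hta9hta11 5 were called, 4 higher and 1 lower (11.5% of all genes, 6.19% higher and 5.32% lower). The medians of the members in these 3 lines were 0.034, 0.012 and 0.029, near the medians of all genes. These 5 comparisons share the Col-0 libraries.

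Since the labels do not say that libraries were grown apart, these p-values reflect the spread between the 18 libraries alone, which may be technical. The common coefficient of variation was 3.08%. With a coefficient of variation of 0.1 assumed in its place, the arp6 calls of HSP70, HSC70-2, HSC70-3, HSP90.2, HSP90.3, HSP90.4 and HSP101 were kept, and those of HSP70B, HSC70-1 and HSP90.1 were lost (adjusted p = 0.0732, 0.481 and 0.129).

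**Figure D2:**
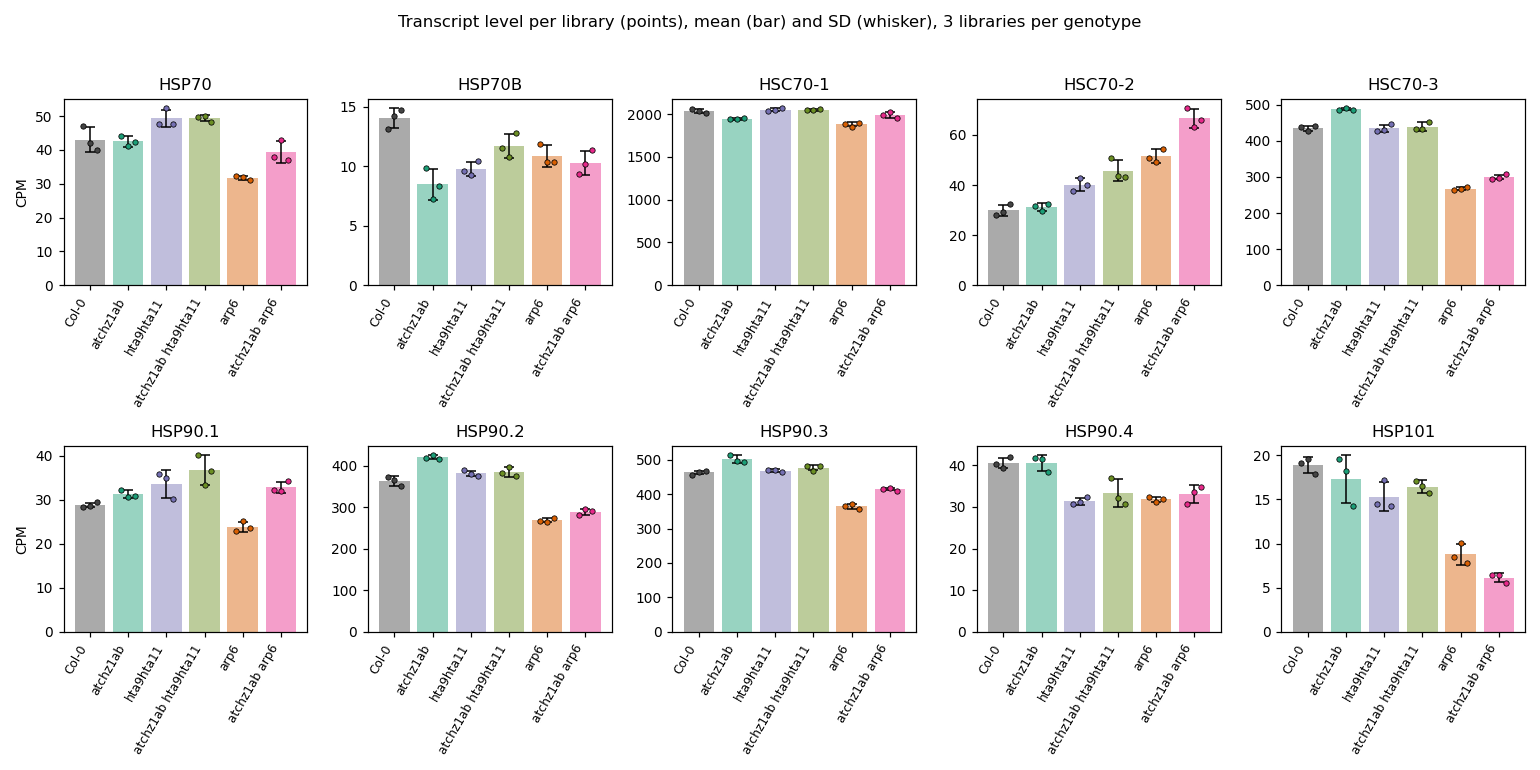
Transcript level (CPM) of the 10 genes in the 6 genotypes, with 1 point per library, bars for the mean and whiskers for the SD (n = 3), each panel on its own axis from 0. HSP101 is lowest and HSC70-2 highest in the 2 lines carrying arp6, and HSC70-1 is nearly level across genotypes.

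HSP101, the disaggregase, had the widest range of the members, with the highest genotype mean 3.08 times the lowest. The gene lies on chromosome 1 (27936508 to 27940369, minus strand, TAIR10.1). Its libraries read 19.2, 19.6 and 17.9 CPM in Col-0, 8.43, 10.1 and 7.84 in arp6 and 6.45, 6.43 and 5.55 in atchz1ab arp6. The 2 lines carrying arp6 lay below every other library of the study, and atchz1ab arp6 lay below arp6 without overlap. HSP101 fell in arp6 (log2 fold change -1.12 ± 0.13, adjusted p = 5.39e-13) and in atchz1ab arp6 (-1.62 ± 0.14, adjusted p = 3.69e-19). The log2 fold change of the combined line against arp6 was -0.50 ± 0.17 (adjusted p = 0.0279). This call was lost when arp6 replicate 1 (0.0515), arp6 replicate 2 (0.149) or atchz1ab arp6 replicate 3 (0.122) was left out, with DESeq2 (0.0531), with only the groups compared in the fit (0.0514) and with the assumed coefficient of variation (0.145).

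In the lines without arp6, HSP101 was not called against Col-0. Libraries read 19.5, 18.2 and 14.3 CPM in atchz1ab, 14.5, 17.2 and 14.3 in hta9hta11 and 17.1, 16.5 and 15.7 in atchz1ab hta9hta11. The atchz1ab libraries overlapped those of Col-0, and the hta9hta11 libraries lay below them without a call (log2 fold change -0.31 ± 0.12, 95% interval -0.54 to -0.081, adjusted p = 0.0673). Leaving out 1 library at a time moved the value for hta9hta11 between -0.40 and -0.26, and it was called without hta9hta11 replicate 2 (0.0352). A gene on the opposite strand, AT1G74300, overlaps HSP101 by 101 bases, and the sources used here do not state whether counting used the strand, which leaves reads in the overlap uncertain. AT1G74300 itself stood at 4.85 to 7.64 CPM on average in the 6 genotypes and was highest in arp6.

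The heat-induced HSP70 (chromosome 3, 3991117 to 3993886, minus strand) was lowest in arp6. Its libraries read 47.0, 42.1 and 40.0 CPM in Col-0, 32.3, 32.0 and 31.0 in arp6 and 37.9, 43.0 and 36.9 in atchz1ab arp6. All arp6 libraries lay below all others, while those of atchz1ab arp6 overlapped Col-0. HSP70 fell in arp6 (log2 fold change -0.44 ± 0.078, adjusted p = 7.2e-07) and was not called in atchz1ab arp6 (-0.13 ± 0.076, adjusted p = 0.155). Between these lines it was higher with atchz1ab by 0.31 ± 0.081 (adjusted p = 0.00301), a call lost without atchz1ab arp6 replicate 2 (0.0725). In the H2A.Z lines HSP70 stood at 49.3 ± 2.63 CPM in hta9hta11 and 49.4 ± 0.923 in atchz1ab hta9hta11, above 43.0 ± 3.62 in Col-0. The first was not called (log2 fold change 0.19 ± 0.072, adjusted p = 0.0623) unless Col-0 replicate 1 was left out (0.0201). The second passed (0.20 ± 0.071, adjusted p = 0.049), a call lost without any library of either line except Col-0 replicate 1 (0.0696 to 0.258). It was also lost with DESeq2 (0.0884), upper-quartile scaling (0.0515), no filter on low counts (0.0507) and the assumed coefficient of variation (0.669). Directly compared, arp6 was lower than hta9hta11 (log2 fold change -0.63 ± 0.076, adjusted p = 1.82e-12).

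HSP70B, another heat-induced HSP70 gene, was highest in Col-0 (chromosome 1, 5501966 to 5504535, minus strand). Its libraries read 13.1, 14.3 and 14.7 CPM in Col-0, 9.83, 7.22 and 8.37 in atchz1ab and 9.61, 9.28 and 10.4 in hta9hta11. Every library of the 5 mutant lines lay below every Col-0 library. The log2 fold change was -0.73 ± 0.14 in atchz1ab (adjusted p = 1.81e-05), -0.52 ± 0.14 in hta9hta11 (0.0033) and -0.45 ± 0.14 in atchz1ab arp6 (0.00461). In arp6, with 10.9 ± 0.898 CPM, the difference of -0.36 ± 0.13 passed with adjusted p = 0.0189, a call lost without Col-0 replicate 2 (0.0509), Col-0 replicate 3 (0.0641), arp6 replicate 2 (0.0563) or arp6 replicate 3 (0.074). In atchz1ab hta9hta11, at 11.7 ± 1.03 CPM, it was not called (-0.26 ± 0.13, adjusted p = 0.199).

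Binding sites of heat shock factors are made of the unit GAA and its complement in alternation. The stretch of 250 bases before to 50 after each RefSeq gene start was searched on both strands for GAANNTTC, TTCNNGAA and the longer GAANNTTCNNGAA, which contains both. The longer motif was in 0.481% of 27443 protein-coding genes' windows and in 2 of the 10 members, HSP70 and HSC70-3. GAANNTTC was in 11.6% of windows and in 3 members, those and HSP101, and TTCNNGAA in 9.16% and in 2 members. The matched stretches are shown in the direction of transcription because they are the members' only matches, with the motif in capitals, from RefSeq (TAIR10.1, chr3:3993846-3993875, chr3:2905898-2905927 and chr1:27940322-27940351, all on the minus strand).
HSP70: tttactcgtGAACGTTCTCGAAagctcttt
HSC70-3: aagccatcgaaccGAACATTCTCGAAcctt
HSP101: ataaaataagcGAAAATTCcacgtgacatc
All 3 matches lie just after the annotated start, at bases 21 to 33, 34 to 46 and 30 to 37. No match in this window says only that these letters are not there, and the HSP90.1 window is set around its coding start.

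Among the constitutive HSC70 genes, HSC70-2 was the 1 member that rose in arp6. It is a neighbour of HSC70-1 on chromosome 5 (550035 to 552827, minus strand) and encodes a protein with 93.9% identity to it. HSC70-2 libraries read 28.2, 29.2 and 32.5 CPM in Col-0, 50.8, 49.4 and 54.5 in arp6 and 70.7, 63.2 and 66.0 in atchz1ab arp6. In the H2A.Z lines they read 37.5, 42.7 and 39.9 in hta9hta11 and 50.7, 43.7 and 43.1 in atchz1ab hta9hta11. Each of these 4 lines was above Col-0 without overlap. The order ran from Col-0 and atchz1ab, which overlapped, through hta9hta11 to atchz1ab hta9hta11 and arp6, which overlapped, and atchz1ab arp6. HSC70-2 rose by 0.79 ± 0.078 on the log2 scale in arp6 (adjusted p = 9.45e-17), 1.16 ± 0.075 in atchz1ab arp6 (1.69e-28), 0.42 ± 0.080 in hta9hta11 (2.43e-05) and 0.62 ± 0.077 in atchz1ab hta9hta11 (4.92e-11). With the assumed coefficient of variation the call in hta9hta11 was lost (0.0603). In atchz1ab alone it was not called (0.064 ± 0.083, 95% interval -0.10 to 0.23, adjusted p = 0.723).

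HSC70-3 (chromosome 3, 2902355 to 2905947, minus strand) moved the other way in the lines carrying arp6. Libraries read 437, 427 and 440.0 CPM in Col-0, 265, 266 and 272 in arp6, 295, 297 and 307 in atchz1ab arp6 and 486, 490.3 and 486 in atchz1ab. The arp6 libraries were lowest, those of atchz1ab arp6 next, and those of atchz1ab highest, with no overlap between these genotypes. The gene fell by 0.70 on the log2 scale in arp6 (SE 0.027, adjusted p = 4.64e-49) and by 0.54 in atchz1ab arp6 (SE 0.027, adjusted p = 6.22e-38), and it rose by 0.17 ± 0.025 in atchz1ab (adjusted p = 6.4e-08). In hta9hta11 and atchz1ab hta9hta11, at 435 ± 10.2 and 439 ± 11.9 CPM, it overlapped Col-0 and was not called. AT3G09430 on the opposite strand overlaps HSC70-3 by 863 bases but stood at only 1.30 to 2.28 CPM on average in the 6 genotypes. RefSeq also lists AT3G02205 on the same strand, overlapping HSC70-3 by 122 bases and not analysed here, so reads in that stretch are uncertain too. The rise in atchz1ab was lost with the assumed coefficient of variation (0.729).

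HSC70-1 (chromosome 5, 553745 to 556623, minus strand) was the steadiest member, with a highest genotype mean 1.09 times the lowest. Its libraries read 2061, 2041 and 2014 CPM in Col-0, 1938, 1942 and 1956 in atchz1ab and 1888, 1854 and 1900.3 in arp6. Both mutants lay below Col-0 without overlap, with log2 fold changes of -0.067 ± 0.015 (adjusted p = 0.000456) and -0.12 ± 0.015 (adjusted p = 8.13e-11). The gene had 52212 counts in Col-0, and both calls were lost with the assumed coefficient of variation (0.965 and 0.481). In atchz1ab arp6 the difference of -0.035 ± 0.015 was not called (adjusted p = 0.0551), and it was without Col-0 replicate 3 (0.0298) or atchz1ab arp6 replicate 2 (0.0118). Within the summed HSC70 counts, HSC70-1 took 81.4% ± 0.385 in Col-0 and 85.5% ± 0.167 in arp6, HSC70-3 went from 17.4% ± 0.300 to 12.2% ± 0.133, and HSC70-2 from 1.20% ± 0.0980 to 2.34% ± 0.0928 (SD, n = 3). The HSC70 sum fell by 0.19 on the log2 scale in arp6 (2200 ± 28.7 against 2503 ± 20.4 CPM, adjusted p = 6.83e-23).

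HSP90.2, HSP90.3 and HSP90.4, the constitutive cytosolic HSP90 genes, lie within 22677338 to 22689671 on chromosome 5. Over the full alignment, HSP90.3 and HSP90.4 encode proteins of 97.7% identity, HSP90.2 and HSP90.3 of 95.2%. The HSP90.2 model used has 728 residues against 699 in each of the others, and its unmatched residues lower the second value. These values therefore do not say which pair is closest. Of the stretches of 50 bases in their transcripts, 18.8% of HSP90.2, 23.9% of HSP90.3 and 18.7% of HSP90.4 also occur in another gene. A read lying wholly within shared sequence cannot be placed on 1 copy, while a longer read that reaches beyond it may be. The sources used here do not state how reads that match several copies were counted. The first 90 coding bases show how close the copies are, with capitals at the 4 positions where the 3 genes are not all the same (RefSeq, TAIR10.1, chr5:22686923-22687012 and chr5:22681410-22681499 on the plus strand and chr5:22679978-22680067 on the minus strand).
HSP90.2: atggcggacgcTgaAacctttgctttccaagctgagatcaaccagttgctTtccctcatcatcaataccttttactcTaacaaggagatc
HSP90.3: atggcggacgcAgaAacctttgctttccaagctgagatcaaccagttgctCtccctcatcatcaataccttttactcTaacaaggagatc
HSP90.4: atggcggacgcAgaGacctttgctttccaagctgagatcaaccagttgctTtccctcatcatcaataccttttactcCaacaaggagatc
The other 7 members share few or no such stretches (0.221% for HSC70-3, 0.185% for HSP101 and 0% for the rest), so the counts of the HSP90 copies are the least certain of the 10.

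HSP90.2 fell in both lines carrying arp6 and rose in atchz1ab. Its libraries read 267, 264 and 274 CPM in arp6, 280.1, 295 and 292 in atchz1ab arp6, 372, 366 and 350.4 in Col-0 and 419, 426 and 415 in atchz1ab. These 4 genotypes did not overlap. The log2 fold change was -0.43 ± 0.029 in arp6 (adjusted p = 2.88e-28), -0.33 ± 0.029 in atchz1ab arp6 (1.05e-19) and 0.21 ± 0.027 in atchz1ab (1.21e-10). In atchz1ab hta9hta11 a difference of 0.083 ± 0.027 passed (adjusted p = 0.0281), a call lost without Col-0 replicate 3 (0.245), atchz1ab hta9hta11 replicate 1 (0.0602) or atchz1ab hta9hta11 replicate 2 (0.227). That call was also lost with the assumed coefficient of variation (0.949).

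HSP90.3, the most abundant HSP90 gene, kept the same order at a smaller scale. Libraries read 364, 371 and 358 CPM in arp6, 415, 419 and 410.3 in atchz1ab arp6, 457, 466 and 466 in Col-0 and 515, 496 and 492 in atchz1ab, again without overlap. The log2 fold change was -0.35 ± 0.025 in arp6 (adjusted p = 6.31e-25), -0.16 ± 0.025 in atchz1ab arp6 (4.47e-08) and 0.11 ± 0.024 in atchz1ab (0.000159). Summed with HSP90.2 and HSP90.4, which does not depend on how reads were split between the copies, the 3 genes stood at 665 ± 1.66 CPM in arp6, 737 ± 10.6 in atchz1ab arp6, 866 ± 7.08 in Col-0 and 962 ± 14.9 in atchz1ab. The sum changed by -0.38 ± 0.020 in arp6 (adjusted p = 1.04e-36), -0.23 ± 0.020 in atchz1ab arp6 (3.11e-20) and 0.15 ± 0.019 in atchz1ab (1.35e-10). The rises of HSP90.2 and HSP90.3 in atchz1ab were lost with the assumed coefficient of variation (0.55 and 0.884), as was the call of HSP90.3 in atchz1ab arp6 (0.34).

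HSP90.4, the least abundant of the 3 copies, was lower in 4 lines. Its libraries read 40.2, 39.5 and 41.9 CPM in Col-0, 30.6, 31.2 and 32.3 in hta9hta11, 32.4, 31.3 and 31.8 in arp6 and 30.6, 33.6 and 34.8 in atchz1ab arp6. Each of these mutants lay below Col-0 without overlap, and they overlapped one another. The log2 fold change was -0.37 ± 0.081 in hta9hta11 (adjusted p = 0.000319), -0.35 ± 0.082 in arp6 (0.000176) and -0.30 ± 0.082 in atchz1ab arp6 (0.00165). In atchz1ab hta9hta11 it was -0.27 ± 0.079 (adjusted p = 0.00989), a call lost without Col-0 replicate 3 (0.053), atchz1ab hta9hta11 replicate 2 (0.0556) or replicate 3 (0.0964). The calls in hta9hta11, atchz1ab arp6 and atchz1ab hta9hta11 were lost with the assumed coefficient of variation (0.134, 0.0889 and 0.369). The share of HSP90.4 in the 3 summed copies was 4.68% ± 0.181 in Col-0 and 3.56% ± 0.134 in hta9hta11, and the sum itself was not called in hta9hta11 (0.024 ± 0.019, adjusted p = 0.517).

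HSP90.1, the heat-induced HSP90 gene (chromosome 5, 21352557 to 21355147, plus strand), was lowest in arp6 and highest in atchz1ab hta9hta11. Libraries read 28.4, 28.5 and 29.4 CPM in Col-0, 22.9, 25.1 and 23.6 in arp6, 32.1, 31.9 and 34.3 in atchz1ab arp6 and 40.2, 33.4 and 36.5 in atchz1ab hta9hta11. The mean was 31.2 ± 0.887 CPM in atchz1ab and 33.6 ± 3.11 in hta9hta11. The arp6 libraries lay below Col-0, and those of every other mutant line lay above it without overlap. In atchz1ab HSP90.1 was not called against Col-0 (0.12 ± 0.087, adjusted p = 0.452). HSP90.1 fell in arp6 (-0.27 ± 0.092, adjusted p = 0.00887) and rose in atchz1ab hta9hta11 (0.36 ± 0.084, adjusted p = 0.00085), both lost with the assumed coefficient of variation (0.129 and 0.156). In atchz1ab arp6 it was not called against Col-0 (0.19 ± 0.088, adjusted p = 0.0739), nor in hta9hta11 (0.22 ± 0.086, adjusted p = 0.0784) unless hta9hta11 replicate 3 was left out (0.0246).

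**Figure D3:**
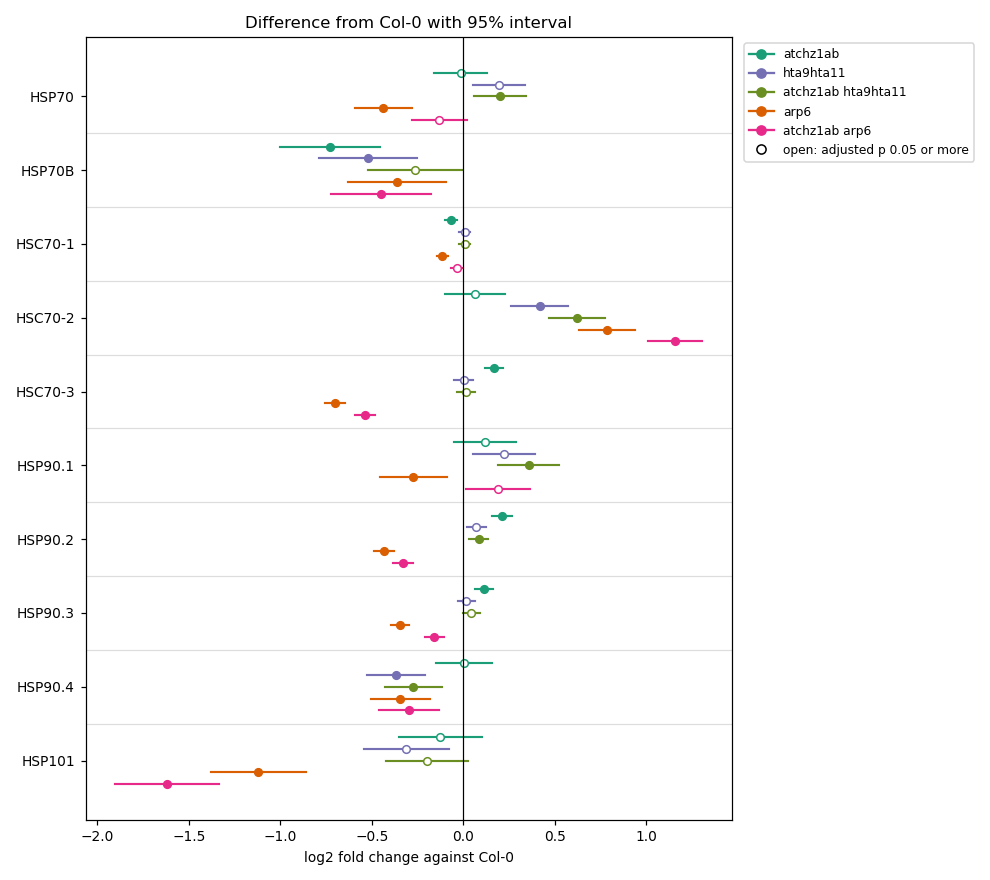
Log2 fold change of each gene in the 5 mutant lines against Col-0, with 95% intervals, filled points for adjusted p under 0.05. In arp6 all genes except HSC70-2 lie left of 0, from -1.12 for HSP101 to -0.12 for HSC70-1, and HSC70-2 reaches 1.16 in atchz1ab arp6.

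Adding atchz1ab to another mutant line asks what the AtChz1 genes contribute where H2A.Z or SWR1 is already impaired. In the arp6 background 8 members were called, 7 higher and 1 lower with atchz1ab, where 14.6% of all genes were called, 6.63% higher and 8.01% lower. The largest rise was that of HSP90.1, by 0.46 ± 0.092 on the log2 scale (adjusted p = 4.08e-05), followed by HSC70-2 (0.37 ± 0.070, 1.33e-05) and HSP70 (given above). HSP90.3 rose by 0.19 ± 0.026 (2.04e-09), HSC70-3 by 0.16 ± 0.029 (2.59e-06), HSP90.2 by 0.10 ± 0.030 (0.00724) and HSC70-1 by 0.081 ± 0.015 (1.63e-05). HSP101 was the 1 member that fell. The call of HSP90.2 was lost without atchz1ab arp6 replicate 2 (0.0572), and with the assumed coefficient of variation HSP90.1 alone was kept (0.0319). Of the 7 that rose, HSP70, HSC70-1, HSC70-3, HSP90.2 and HSP90.3 had means between those of arp6 and Col-0 in the combined line, HSP90.1 lay above Col-0, and HSC70-2 lay farther above it than in arp6.

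In the hta9hta11 background edgeR called 0 members, where 1.75% of all genes were called, 0.793% higher and 0.952% lower. DESeq2 also called 0, and 1 member had an unadjusted p under 0.05, HSC70-2, at 45.8 ± 4.25 CPM in atchz1ab hta9hta11 against 40.0 ± 2.59 in hta9hta11 (0.20 ± 0.073, 95% interval 0.060 to 0.35, adjusted p = 0.171). For the abundant genes the intervals were narrow, -0.031 to 0.030 for HSC70-1 and -0.021 to 0.074 for HSP90.3. For HSP70B (-0.015 to 0.53) and HSP101 (-0.12 to 0.34) they were wide.

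**Figure D4:**
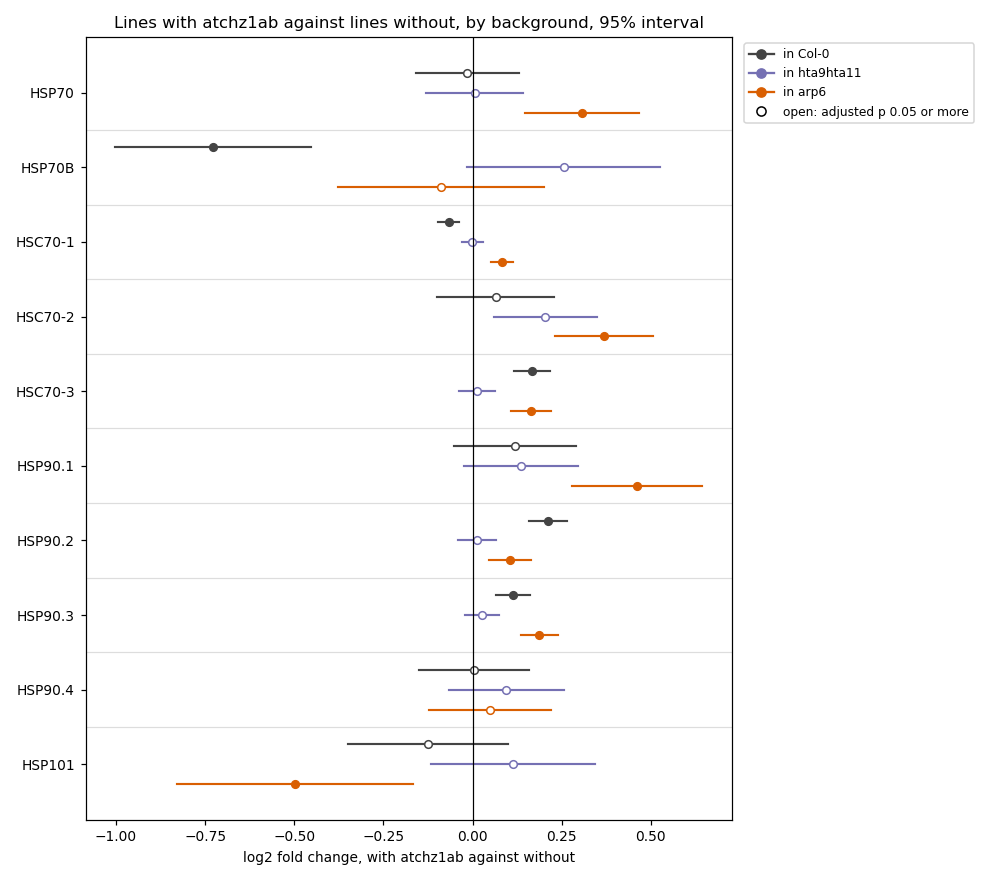
Log2 fold change of each gene made by adding the atchz1ab mutations, in the Col-0, hta9hta11 and arp6 backgrounds, with 95% intervals and filled points for adjusted p under 0.05. In the hta9hta11 background no point is filled, and in the arp6 background 7 genes lie right of 0 with filled points while HSP101 lies left of it at -0.50.

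Interaction terms tested whether the atchz1ab difference itself depended on the background. With hta9hta11, 4 members were called, 2 higher and 2 lower (7.15% of all genes, 3.41% higher and 3.74% lower). HSP70B differed most, from -0.73 ± 0.14 in Col-0 to 0.26 ± 0.14 in hta9hta11 (interaction 0.98 ± 0.19, adjusted p = 7.25e-05). HSP90.2 and HSC70-3 rose with atchz1ab in Col-0 and were not called in hta9hta11 (interactions -0.20 ± 0.038 and -0.15 ± 0.036, adjusted p = 3.36e-05 and 0.00127). HSC70-1 had an interaction of 0.067 ± 0.022 (adjusted p = 0.0373), lost without any of the 12 libraries except Col-0 replicate 3, atchz1ab replicate 3 and hta9hta11 replicate 3 (0.0573 to 0.135), and with upper-quartile scaling (0.0713) or no filter on low counts (0.0749). With the assumed coefficient of variation HSP70B alone was kept (0.00417).

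With arp6, 4 members were called, all higher (13.7% of all genes, 6.38% higher and 7.35% lower). HSC70-1 was lower with atchz1ab in Col-0 and higher in arp6 (interaction 0.15 ± 0.022, adjusted p = 1.58e-08). HSP70B had an interaction of 0.64 ± 0.20 (adjusted p = 0.0187), lost without atchz1ab replicate 2 (0.0842) or atchz1ab arp6 replicate 3 (0.0718). For HSP70 it was 0.32 ± 0.11 (adjusted p = 0.0316), lost without Col-0 replicate 1 (0.143), arp6 replicate 3 (0.0767), atchz1ab arp6 replicate 2 (0.167) or atchz1ab replicates 2 (0.0751) and 3 (0.0546). For HSC70-2 it was 0.30 ± 0.11 (adjusted p = 0.0436), lost without any library except Col-0 replicate 1, atchz1ab replicate 3, arp6 replicate 3 and atchz1ab arp6 replicate 2 (0.0514 to 0.181), and with no filter on low counts (0.0604). DESeq2 called neither HSP70 (0.0681) nor HSC70-2 (0.0984). The fall of HSP101 with atchz1ab in arp6 was not shown to differ from the change in Col-0 (-0.37 ± 0.20, 95% interval -0.77 to 0.028, adjusted p = 0.253). With the assumed coefficient of variation none of the 4 was called.

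The remaining comparisons set mutant lines against each other. Adding arp6 to atchz1ab called 6 members, 1 higher and 5 lower (44.8% of all genes, 22.2% higher and 22.6% lower), with HSP101 at -1.49 ± 0.14, HSC70-3 at -0.70 ± 0.027, HSP90.2 at -0.54 ± 0.028 and HSC70-2 at 1.09 ± 0.074 on the log2 scale (adjusted p from 6.14e-17 to 8.36e-50). Adding hta9hta11 to atchz1ab called 9, 5 higher and 4 lower (10.6% of all genes, 5.46% higher and 5.16% lower). The largest of these was HSC70-2 (0.56 ± 0.076, adjusted p = 2.28e-09), the 1 kept with the assumed coefficient of variation (0.0027), and HSC70-1, HSC70-3 and HSP90.2 were also called without any 1 library. The call of HSP70 was lost without any library except atchz1ab replicate 1 (0.0505 to 0.132), that of HSP90.1 without any except atchz1ab hta9hta11 replicate 2 (0.0599 to 0.344) and that of HSP90.3 without any except atchz1ab replicate 3 (0.0549 to 0.277). HSP70B was lost without atchz1ab replicate 2 (0.154), atchz1ab replicate 3 (0.0545) or atchz1ab hta9hta11 replicate 3 (0.104), and HSP90.4 without atchz1ab hta9hta11 replicate 2 (0.0514) or replicate 3 (0.0887). DESeq2 did not call HSP70 (0.0637), HSP90.1 (0.0883) or HSP90.3 (0.0563), and with no filter on low counts HSP90.1 (0.0532) and HSP90.3 (0.0535) were lost. Between arp6 and hta9hta11, 8 members were called, 1 higher and 7 lower in arp6 (44.7% of all genes, 22.1% higher and 22.6% lower), and HSC70-2, raised in both against Col-0, was higher in arp6 by 0.37 ± 0.073 (adjusted p = 8.85e-06).

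Over the 18 libraries the level of HSC70-3 followed those of HSP90.2 (Pearson r = 0.981) and HSP90.3 (r = 0.962), and that of HSC70-2 ran against HSP101 (r = -0.874). HSP70B followed no other member (r from -0.19 to 0.302). These values describe log2 CPM over libraries that share their genotypes in threes, so they largely restate differences between 6 genotype means. Outside the members, 14840 genes of at least 5 CPM on average were ranked in the same way. The closest to HSP70 were AT5G44530 (r = 0.952), AT1G07040 (0.948), FIP1[V] (0.933), AT1G62510 (0.93) and BXL1 (0.928). HSP101 was most like AT2G02770 (0.965), AT3G28950 (0.964), AT4G36970 (0.964), AT3G16670 (0.961) and SAE2 (0.959), and HSP90.2 most like UBQ3 (0.991), AOX1A (0.986), CYP72A13 (0.985), ABCB4 (0.985) and SOT12 (0.984).

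The partners of these chaperones were read in the same fit. Of 18 cochaperones of HSP70 and HSP90, 12 fell and 0 rose in arp6, where 25.5% of all tested genes fell and 24.2% rose, and 8 fell and 1 rose in atchz1ab arp6 (23.2% and 22.7% of all genes). ROF2 (AT5G48570), an immunophilin that binds HSP90, went from 11.0, 10.8 and 10.7 CPM in Col-0 to 0.316, 0.741 and 0.713 in arp6 and 1.14, 0.669 and 1.11 in atchz1ab arp6, with no overlap (log2 fold change in arp6 -4.22 ± 0.29, adjusted p = 2.78e-27). FES1A (AT3G09350), which protects HSP70 in Arabidopsis under heat, fell from 24.5 ± 2.43 to 14.9 ± 1.14 CPM in arp6 (-0.73 ± 0.11, adjusted p = 5.15e-09). J3 (AT3G44110), a J protein that drives the HSP70 cycle, fell from 283 ± 3.28 to 239 ± 2.95 (-0.24 ± 0.030, adjusted p = 6.2e-12).

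Among 12 heat shock factor genes and their binding protein, 10 were tested. In arp6 1 rose and 4 fell, and with 49.7% of all tested genes called in that line (24.2% higher, 25.5% lower) this count is near the background. HSFA2 (AT2G26150), a heat-induced activator, stood at 4.95 ± 0.967 CPM in Col-0 and 2.85 ± 0.116 in arp6 (-0.79 ± 0.23, adjusted p = 0.00268), and HSFB2A (AT5G62020), of the class without an activation domain, at 8.20 ± 1.05 and 4.95 ± 1.22 (-0.71 ± 0.19, 0.001). HSFA1E (AT3G02990), of the class that starts the heat response, rose in atchz1ab arp6 from 5.92 ± 0.972 to 9.38 ± 1.11 CPM (0.67 ± 0.18, adjusted p = 0.00101).

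Of 17 small heat shock proteins and other heat-induced genes, 13 were tested. In atchz1ab 6 fell and 1 rose (5.55% and 6.15% of all genes), in hta9hta11 6 and 1 (5.26% and 5.98%) and in atchz1ab hta9hta11 3 and 1 (5.32% and 6.19%). In arp6 8 fell and 0 rose, and in atchz1ab arp6 7 and 1, where far larger shares of all genes fell (25.5% and 23.2%) and rose (24.2% and 22.7%). HSP17.6A (AT5G12030), a cytosolic small heat shock protein that holds unfolded proteins, had 103 counts in Col-0 as a whole and 5 in arp6 (-4.21 ± 0.52, adjusted p = 6.92e-12), and HSP17.6C (AT1G53540) had 78 in Col-0 and 4 in atchz1ab (-4.24 ± 0.56, 3.89e-10). The riser in atchz1ab was HSP23.5 (AT5G51440), a mitochondrial small heat shock protein, at 23.8, 19.7 and 27.0 against 11.1, 12.3 and 13.5 CPM (0.93 ± 0.11, adjusted p = 1.47e-11).

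The HSP70, HSP90 and ClpB chaperones of organelles, with some further HSP70 genes, did not follow the cytosolic members in one direction. Of 17 genes 16 were tested. In atchz1ab 5 rose and 4 fell (6.15% and 5.55% of all genes), in hta9hta11 2 and 1 (5.98% and 5.26%) and in atchz1ab hta9hta11 3 and 2 (6.19% and 5.32%). In atchz1ab arp6 5 rose and 5 fell (22.7% and 23.2%). In arp6 4 rose and 8 fell, where 24.2% of all tested genes rose and 25.5% fell. The count of rises in arp6 is thus near the background and that of falls above it. The chloroplast cpHSC70-1 (AT4G24280) rose from 391 ± 4.47 to 521 ± 16.1 CPM (0.42 ± 0.025, adjusted p = 3.81e-31), and the mitochondrial HSP90.6 (AT3G07770) from 70.3 ± 1.33 to 98.6 ± 4.96 (0.49 ± 0.052, 3.65e-15). BIP1 (AT5G28540), the HSP70 of the endoplasmic reticulum, fell from 294 ± 6.83 to 229 ± 8.50 (-0.36 ± 0.031, 2.35e-20). In arp6 the median log2 fold change was -0.29 over the cochaperones, -0.93 over the small heat shock protein list, -0.078 over the heat shock factors and -0.081 over the organelle list, beside -0.35 over the 10 members and -0.016 over all tested genes.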

How the data were processed

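Messenger RNA of 18 seedling libraries was measured with a stranded kit. Per the submitters' processing notes, the authors used cutadapt, HISAT2, SAMtools and featureCounts with the TAIR10 genome and deposited raw counts per gene. The sources used here do not state versions, settings, strand or the treatment of reads that map to several genes.

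From the deposited counts, filterByExpr kept 18906 genes, holding 99.905% of all counts. Libraries were scaled by TMM and fitted together with edgeR 4.0.16 in R 4.3.3 (12 residual degrees of freedom). Genotypes were compared by the quasi-likelihood test with Benjamini-Hochberg adjustment over all tested genes, with 95% intervals. CPM are after TMM, and RPKM divides them by RefSeq exon length (TAIR10.1, whose annotation may differ from that of the authors). Calling for arp6 against Col-0 was also run on counts simulated with the spread fitted to these libraries. That simulation changed far fewer genes than were called in arp6. It cannot show whether the spread is technical, and no call rests on it. Alternatives were RLE and upper-quartile scaling, no filter, only the groups compared, DESeq2 1.42.0, a replicate block, summed paralogs, an assumed coefficient of variation of 0.1 and leaving out each library. Replicate numbers share no stated batch and were not used to pair libraries. Pairs of libraries of a genotype differed by more than counting noise (chi-square per degree of freedom 1.43 to 1.66).

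Members and gene lists were chosen with earlier results of these data known, and the motifs and the stretches shown after values were seen. All 10 members were described, with the 3 genes of each other list with the smallest adjusted p against Col-0, and the 5 genes most correlated with HSP70, HSP101 and HSP90.2. Neighbouring genes were named for their overlap.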

Additional observations from a re-analysis of the deposited data

Results flagged for a closer look

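The difference made by atchz1ab depended on the background for 8 member and background pairs by edgeR's test of the interaction, each given as a log2 difference of differences with its adjusted p. With hta9hta11 edgeR gave HSP70B (0.984, adjusted p = 7.25e-05), HSC70-1 (0.06688, adjusted p = 0.0373), HSC70-3 (-0.1527, adjusted p = 0.00127) and HSP90.2 (-0.1997, adjusted p = 3.36e-05). With arp6 edgeR gave HSP70 (0.3213, adjusted p = 0.0316), HSP70B (0.6401, adjusted p = 0.0187), HSC70-1 (0.1487, adjusted p = 1.58e-08) and HSC70-2 (0.3044, adjusted p = 0.0436). Only HSP70B with hta9hta11 was also called with an assumed coefficient of variation of 0.1 (0.00417), and both interactions of HSP70B and of HSC70-1 use the same atchz1ab and Col-0 libraries.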

How the results depend on the processing

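Across 120 member differences and 1800 values under 26 alternatives, 129 lost a call and 19 gained one with the sign kept. Another 58 changed sign, 42 of these for differences called in neither fit. Calls lost or gained together with a change of sign are counted only among the 58. The replicate block changed no call of a member, and same-numbered libraries did not deviate together (r from -0.0267 to 0.0296), so no pairing was used. With the assumed coefficient of variation of 0.1, the count of members called went to 1 for each of atchz1ab, hta9hta11 and their combination against Col-0, 1 in atchz1ab arp6 against arp6, 1 in atchz1ab hta9hta11 against atchz1ab, 1 for the interaction with hta9hta11 and 0 for that with arp6. DESeq2 called 2 for the interaction with arp6. Leaving out 1 library gave 3 to 5 members for hta9hta11 against Col-0 (5 without Col-0 replicate 1), 2 to 5 for atchz1ab hta9hta11 against Col-0 (2 without Col-0 replicate 3 or atchz1ab hta9hta11 replicate 2, 3 without atchz1ab hta9hta11 replicate 1 or 3), 4 to 7 for atchz1ab hta9hta11 against atchz1ab (5 without atchz1ab replicate 2, 4 without atchz1ab hta9hta11 replicate 3) and 1 to 4 for the interaction with arp6 (1 without atchz1ab replicate 2, 2 without atchz1ab arp6 replicate 3). With paralogs summed, which gives each gene its family's value, the counts against Col-0 were 0 for hta9hta11, 3 for atchz1ab and 1 for atchz1ab hta9hta11. The sums changed sign against the single gene, by construction, as follows on the log2 scale. Against Col-0 they were -0.02266 for HSC70-2 and HSC70-3 in atchz1ab, 0.048 for HSP70B and 0.02413 for HSP90.4 in hta9hta11, -0.1862 for HSC70-2 in arp6, 0.09834 for HSP70B and 0.04666 for HSP90.4 in atchz1ab hta9hta11, and -0.08715 for HSC70-2 in atchz1ab arp6. Between mutants they were 0.005266 for HSC70-1 in atchz1ab hta9hta11 against hta9hta11, 0.2152 for HSP70B in atchz1ab arp6 against arp6, 0.04063 for HSC70-3 in atchz1ab hta9hta11 against atchz1ab, -0.04259 for HSP70B and -0.06449 for HSC70-1 and HSC70-2 in atchz1ab arp6 against atchz1ab, and -0.4667 for HSP70B, -0.1989 for HSC70-2 and -0.4058 for HSP90.4 in arp6 against hta9hta11. For interactions they were 0.02793 for HSC70-3 and -0.1283 for HSP90.4 with hta9hta11, and 0.1217 for HSC70-3 and -0.002782 for HSP90.3 and HSP90.4 with arp6. The other changes of sign were of values near 0 that were not called, and the cause was not tested. HSC70-1 in atchz1ab hta9hta11 against hta9hta11 was 0.001587 with RLE, 0.002622 with no filter and 0.001852 with DESeq2, and the HSC70-3 interaction with arp6 was 0.001335 with upper-quartile scaling. Leaving out 1 library gave -0.06118 to 0.05131 for HSP70 and -0.01706 to 0.04369 for HSP90.4 in atchz1ab against Col-0, -0.000299 to 0.01629 for HSC70-1 and -0.01777 to 0.01655 for HSC70-3 in hta9hta11 against Col-0, and -0.000631 to 0.01567 for HSC70-1 and -0.006899 to 0.02801 for HSC70-3 in atchz1ab hta9hta11 against Col-0. It gave -0.01694 to 0.04809 for HSP70, -0.007222 to 0.006083 for HSC70-1, -0.008738 to 0.03305 for HSC70-3 and -0.009728 to 0.03008 for HSP90.2 in atchz1ab hta9hta11 against hta9hta11, and -0.1933 to 0.0228 for HSP101 in atchz1ab hta9hta11 against atchz1ab. For interactions it gave -0.04557 to 0.06684 for HSP70 and -0.06123 to 0.07854 for HSP90.1 with hta9hta11, and -0.02053 to 0.01004 for HSC70-3 with arp6. Depth limits HSP70B and HSP101 most, the least abundant members per length in Col-0.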
